A study of Mus musculus with 12 samples.

Results

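Pericyte and smooth muscle marker genes were followed across 3 genotypes in RNA-Seq of sorted mouse oligodendrocytes. The 9 genes were taken by their symbols from a list of such markers and all of them were found among the 55376 gene symbols of the count table. They comprise 6 pericyte markers (Pdgfrb, Rgs5, Kcnj8, Abcc9, Vtn and Higd1b) and 3 smooth muscle markers (Acta2, Tagln and Myh11). All 9 passed the filter on low counts and were among the 17716 genes tested. The cells were CD45– O1+ oligodendrocytes sorted from the brains of C57BL/6 mice at postnatal day 40. There were 4 samples of each genotype, and each sample pooled the cells of 2 brains. WT samples were labelled as wild type, Jab1-mutant samples were Cnp-Cre Jab1fl/fl, and double-mutant samples were Cnp-Cre Jab1fl/fl that in addition lacked p21 (p21-/-) in all cells. Cnp-Cre is active in the oligodendrocyte lineage and in Schwann cells, so pericytes and smooth muscle cells were not the intended targets of the Jab1 deletion. The paper does not fully exclude a small share of other cells among those sorted. The comparisons ask at what level transcripts of these markers were found in the sorted samples and whether it differed between genotypes. Which cells they came from was not tested.

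Pericytes are contractile cells that wrap the capillary endothelium within its basement membrane, and in the brain they belong to the neurovascular unit that maintains the blood-brain barrier. Endothelial cells release PDGF-B, which recruits pericytes through the receptor PDGFRβ on their surface. Smooth muscle cells replace pericytes around arteries and arterioles and hold the contractile apparatus that sets vessel diameter. Oligodendrocytes are not a recognised source of these markers as a set, although single genes of it may be transcribed in other cells.

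Sequencing depth was high in every sample, with total counts of 90757237 to 153495112 in WT, 61485556 to 111365583 in Jab1-mutant and 91564521 to 116034670 in double-mutant samples. Levels are given as CPM, counts scaled to an equal library total, with TMM factors that correct for differences in library composition. Cops5, which encodes JAB1, was at 46.3 to 133 CPM in WT, 45 to 89.0 CPM in Jab1-mutant and 44.2 to 90.4 CPM in double-mutant samples. Cdkn1a, which encodes p21, was at 16.0 to 85.3 CPM in WT, 379 to 637 CPM in Jab1-mutant and 64.7 to 103 CPM in double-mutant samples. The table holds 1 total per gene and not the deleted exons, so neither gene checked the labels. The summed level of 10 oligodendrocyte markers was 45139 to 105683 CPM in WT, 8999 to 35144 CPM in Jab1-mutant and 16875 to 52714 CPM in double-mutant samples, so the labelled cell type was present in every sample.

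Promoter sequence was available for 5 of the 9 markers, and is shown because 4 of these genes (Rgs5, Kcnj8, Abcc9 and Vtn) rose in Jab1-mutant samples and the other (Acta2) varied widely among samples of a genotype. Each window spans 250 bases before and 50 bases from the RefSeq transcript start (assembly GRCm38.p6), is written 5′ to 3′ on the strand of the gene, and numbers the start as base 1. The windows are chr1:169655251-169655550 on the plus strand for Rgs5, chr6:142571565-142571864 on the minus strand for Kcnj8, chr6:142702225-142702524 on the minus strand for Abcc9, chr11:78498870-78499169 on the plus strand for Vtn and chr19:34255324-34255623 on the minus strand for Acta2. Capitals mark matches, on either strand, to the TATA box TATAAA, the GC box GGGCGG, the core TGGGAA bound by the Notch partner RBPJ, and the CArG box bound by serum response factor, in its strict or in a relaxed (CArG-like) form.
Rgs5: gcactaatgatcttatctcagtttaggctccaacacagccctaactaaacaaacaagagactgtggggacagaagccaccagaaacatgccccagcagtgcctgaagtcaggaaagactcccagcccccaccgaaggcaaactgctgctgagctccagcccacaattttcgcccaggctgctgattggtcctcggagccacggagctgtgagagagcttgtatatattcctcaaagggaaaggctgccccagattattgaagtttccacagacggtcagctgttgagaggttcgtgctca
Kcnj8: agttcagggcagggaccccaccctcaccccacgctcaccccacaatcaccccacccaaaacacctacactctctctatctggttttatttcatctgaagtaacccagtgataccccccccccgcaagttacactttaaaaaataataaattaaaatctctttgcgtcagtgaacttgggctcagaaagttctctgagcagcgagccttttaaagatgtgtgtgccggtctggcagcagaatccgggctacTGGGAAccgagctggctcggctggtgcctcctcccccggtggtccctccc
Abcc9: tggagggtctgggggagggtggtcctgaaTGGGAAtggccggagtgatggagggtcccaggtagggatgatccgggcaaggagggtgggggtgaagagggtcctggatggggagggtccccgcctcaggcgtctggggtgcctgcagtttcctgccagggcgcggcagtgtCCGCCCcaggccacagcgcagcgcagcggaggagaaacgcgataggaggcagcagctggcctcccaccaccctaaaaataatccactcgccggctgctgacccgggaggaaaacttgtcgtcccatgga
Vtn: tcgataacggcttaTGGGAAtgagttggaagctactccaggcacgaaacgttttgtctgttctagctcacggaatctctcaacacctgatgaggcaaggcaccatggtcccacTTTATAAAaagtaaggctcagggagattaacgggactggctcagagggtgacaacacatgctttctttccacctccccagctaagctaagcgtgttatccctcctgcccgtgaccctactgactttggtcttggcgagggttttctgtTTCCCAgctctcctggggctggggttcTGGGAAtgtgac
Acta2: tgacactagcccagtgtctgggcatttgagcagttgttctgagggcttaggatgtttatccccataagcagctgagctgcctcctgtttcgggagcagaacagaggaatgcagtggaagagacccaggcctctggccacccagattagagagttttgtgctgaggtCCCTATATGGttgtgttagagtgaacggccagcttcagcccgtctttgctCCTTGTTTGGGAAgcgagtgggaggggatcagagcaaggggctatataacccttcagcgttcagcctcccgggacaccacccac
The RBPJ core was present in the windows of Kcnj8 (at base 1), Abcc9, Vtn (3 matches) and Acta2, and in 25.6% of all 32851 promoters of this length. The Vtn window held 2 TATAAA matches, starting at bases -137 and -135, that overlap each other on opposite strands. In all, 13.6% of promoters held this motif. Only the exact letters TATAAA were searched, so variants of the box were not marked in any window. The Abcc9 window held 1 GC box, which 35.7% of all promoters held. No window held a strict CArG box, which 1.63% of all promoters held. The Acta2 window held 2 CArG-like boxes, with 1 C or G inside the A/T core, starting at bases -84 and -34. The second overlaps the RBPJ core. The relaxed form was added to the search after the windows had been read, and 8.5% of all promoters held it. The Rgs5 window held no match. The GC content of the windows was 51.7% for Vtn, 52.3% for Rgs5, 53.3% for Kcnj8, 54.7% for Acta2 and 65.7% for Abcc9, beside a median of 52.7% over all promoters.

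Kcnj8 and Abcc9 lie side by side on the minus strand of chromosome 6. In GENCODE M21 (GRCm38), Kcnj8 occupies chr6:142564837-142571614 and Abcc9 chr6:142587862-142702315, with 16247 bases between them. Vtn (chr11:78499091-78502324) and Higd1b (chr11:102835849-102838040) share chromosome 11 but not a neighbourhood. Rgs5 is at chr1:169655501-169695813, Pdgfrb at chr18:61045150-61085061, Acta2 at chr19:34241090-34255590, Tagln at chr9:45929619-45936058 and Myh11 at chr16:14194535-14291372. All values below are sums over the exons of a gene.

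In Jab1-mutant samples 5 of the 6 pericyte markers were higher than in WT, by 4.85-fold to 6.71-fold, and Pdgfrb was the exception. None of the 3 smooth muscle markers passed the test, and none had an unadjusted p below 0.05 or passed with DESeq2 or limma-voom. The test was edgeR's quasi-likelihood test on the counts of the 8 samples, with Benjamini-Hochberg adjustment over all 17716 genes and a threshold of 0.05. In this comparison 7.64% of all genes passed in either direction, and 3991 of the 17716 genes had an unadjusted p below 0.05. The levels of the same 5 markers did not overlap between the genotypes, being higher in all 4 Jab1-mutant samples, whereas 9.90% of all genes were higher without overlap and 7.24% were lower without overlap. DESeq2 called the same 5 markers, where it called 15.3% of all genes. With all 12 samples in one edgeR fit, 3 markers (Rgs5, Vtn and Higd1b) were called, where 5.31% of all genes were. The median log2 fold change was 2.28 over the 9 markers and 0.02 over all genes tested. In bulk samples a larger number of cells of a type cannot be told apart from more RNA per cell. CPM values are shares of a library, so they also depend on the amount of all other transcripts, and this part was not tested.

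Vtn encodes vitronectin, an adhesive glycoprotein that brain pericytes deposit in the basement membrane. It stood at 158, 216, 92.1 and 156 CPM in WT replicates 1, 3, 5 and 6, and at 714, 717, 653 and 931 CPM in Jab1-mutant replicates 1 to 4. All 4 Jab1-mutant samples were above the highest WT sample. Vtn rose by a log2 fold change of 2.28 ± 0.33 (SE; 95% CI, 1.55 to 3.0; adjusted p = 0.0037). Double-mutant replicates 1, 2, 3 and 5 had 184, 279, 796 and 1248 CPM. Replicate 1 lay within the WT range, replicate 2 between the ranges of the other genotypes, replicate 3 within the Jab1-mutant range and replicate 5 above it.

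Higd1b encodes a small mitochondrial inner membrane protein of the hypoxia-inducible domain family and is among the most selective brain pericyte transcripts. WT samples had 6.25, 7.95, 5.02 and 8.32 CPM. Jab1-mutant samples had 20.5, 45.2, 46.3 and 45.3 CPM, of which replicate 1 was apart from the others. Higd1b rose by a log2 fold change of 2.51 ± 0.39 (95% CI, 1.66 to 3.37; adjusted p = 0.0045). Double-mutant replicates 1 and 2, at 5.62 and 5.84 CPM, were within the WT range, and replicates 3 and 5, at 28.9 and 51.9 CPM, were above it.

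Kcnj8 and Abcc9 encode the pore Kir6.1 and the sulfonylurea receptor SUR2, which together form the vascular KATP channel, a potassium channel that opens when ATP falls and relaxes the cell. Kcnj8 was at 10.5, 6.34, 3.85 and 6.57 CPM in WT and at 22.3, 53.5, 28.3 and 44.8 CPM in Jab1-mutant samples. The groups did not overlap, and the log2 fold change was 2.45 ± 0.44 (95% CI, 1.48 to 3.41; adjusted p = 0.0087). Abcc9 was at 4.78, 4.46, 1.47 and 2.03 CPM in WT and at 20.1, 16.4, 17.8 and 31.3 CPM in Jab1-mutant samples. It had the largest fold change of the 9 markers, 2.75 ± 0.53 on the log2 scale (95% CI, 1.58 to 3.92; adjusted p = 0.0119). Across the double-mutant samples Kcnj8 ranged from 2.07 CPM in replicate 1, below every WT sample, through 16.2 CPM to 65.6 and 68.8 CPM in replicates 3 and 5. Abcc9 followed the same order of samples, at 0.908, 3.23, 13.8 and 24.6 CPM. The ratio of Kcnj8 to Abcc9 overlapped between the genotypes, at 1.42 to 3.24 in WT, 1.11 to 3.26 in Jab1-mutant and 2.28 to 5.01 in double-mutant samples. Reads of Abcc9 could be shared with 5330439B14Rik on the other strand, which had at most 54 counts in any sample.

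Rgs5 encodes a regulator that shortens G protein signals and is a classical marker of pericytes. It was at 38.4, 21.4, 30.3 and 9.19 CPM in WT and at 90.3, 107, 88.7 and 254 CPM in Jab1-mutant samples. Jab1-mutant replicate 4 was more than double any other sample of its group, and the remaining samples were still above all WT samples. Rgs5 rose by a log2 fold change of 2.44 ± 0.50 (95% CI, 1.36 to 3.53; adjusted p = 0.0146). Without WT replicate 3, Rgs5 no longer passed the threshold, and 4 of the 9 markers did. Double-mutant samples split again, with 26.2 and 27.5 CPM in replicates 1 and 2 and 168 and 162 CPM in replicates 3 and 5.

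Pdgfrb, the receptor by which pericytes are recruited, did not follow the other pericyte markers. WT samples had 55.9, 180.5, 37.6 and 116 CPM, Jab1-mutant samples 93.7, 70.0, 103 and 110.2 CPM, and double-mutant samples 39.5, 111, 83.4 and 126 CPM. The 3 groups overlapped throughout, and the highest sample was WT replicate 3. The log2 fold change from WT was -0.05 ± 0.44 in Jab1-mutant samples (95% CI, -1.01 to 0.92; adjusted p = 0.966), an interval that runs from a halving to near a doubling. Its sign turned under other scalings, so no direction was given to it. The means were 97.4 ± 64.6 CPM (SD, n = 4) in WT, 94.2 ± 17.5 CPM in Jab1-mutant and 90.0 ± 38.0 CPM in double-mutant samples.

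**Figure D1:**
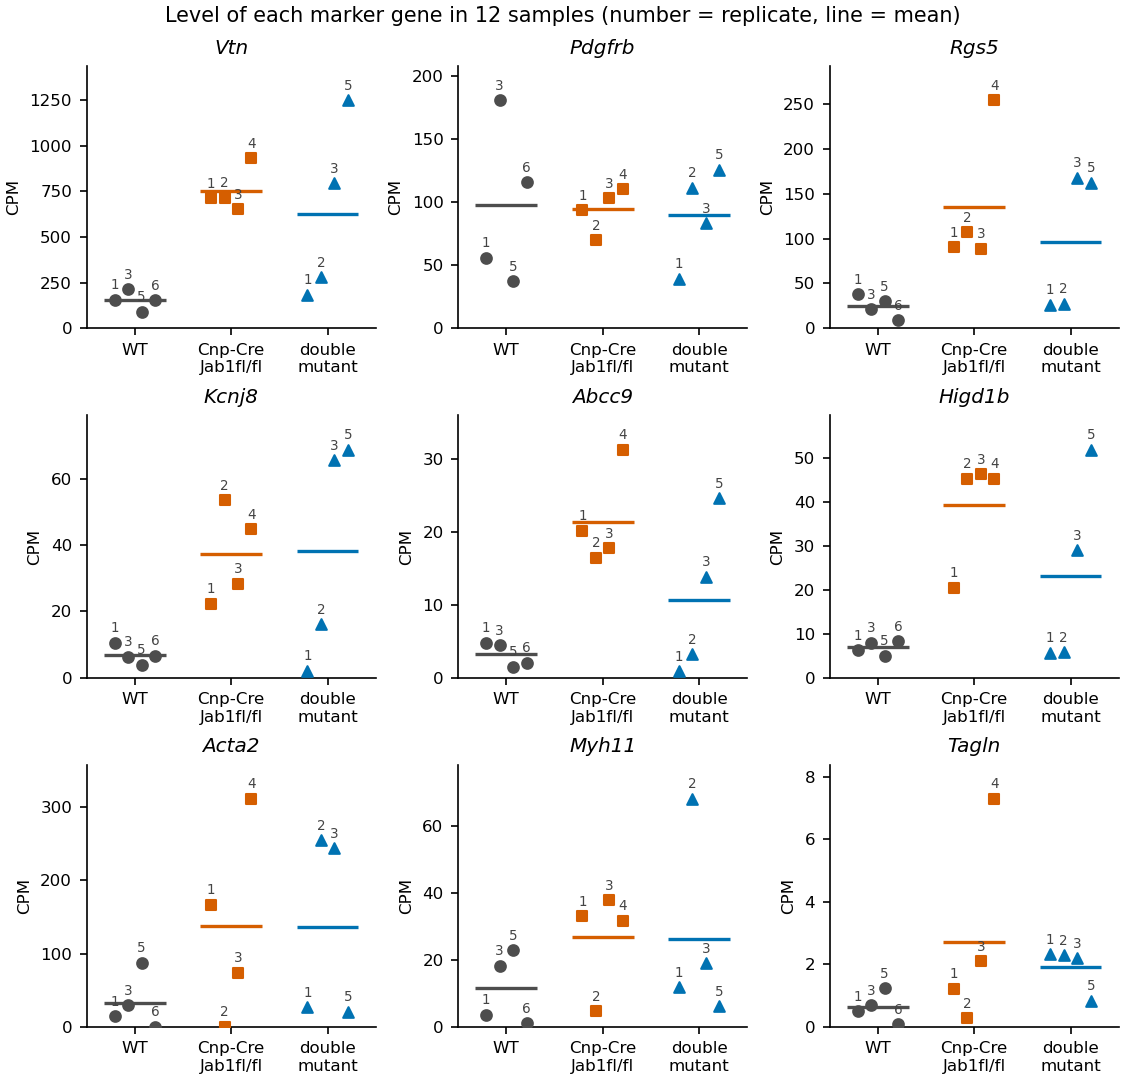
Levels of the 9 marker genes (vertical axes, CPM with TMM scaling) in the 12 samples of the 3 genotypes (horizontal axes), where each point is 1 sample, the number beside it is its replicate and the line is the group mean. The 4 Jab1-mutant samples sit above all WT samples for Vtn, Rgs5, Kcnj8, Abcc9 and Higd1b, whereas the double-mutant samples of these genes overlap the WT range at their low end.

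The smooth muscle markers overlapped between the genotypes, and Acta2 varied most widely among WT and among Jab1-mutant samples. Acta2 encodes smooth muscle α-actin, the actin isoform of the contractile filaments. It was at 14.2, 29.2, 87.6 and 0 CPM in WT, at 167, 0.208, 74.0 and 311 CPM in Jab1-mutant samples and at 26.9, 255, 244 and 20.8 CPM in double-mutant samples. WT replicate 6 had 0 counts, which allows a level of up to 0.0325 CPM (3 counts, counting error only), and Jab1-mutant replicate 2 had 25 counts. The group means were 32.7 ± 38.4, 138 ± 134 and 137 ± 130 CPM, with SDs close to or above the means. Against WT its log2 fold change was 2.08 ± 1.62 in Jab1-mutant samples (95% CI, -1.48 to 5.63; adjusted p = 0.504), an interval too wide to tell a rise from a fall, and limma-voom gave 5.35. Acta2 shares near-identical sequence with the other muscle actins Acta1, Actg2 and Actc1, and how reads that match several genes were counted is not given in the sources used here, so its counts are uncertain.

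Myh11 encodes the smooth muscle myosin heavy chain, the motor that pulls on the actin filaments. It was at 3.62, 18.3, 22.9 and 1.07 CPM in WT, at 33.1, 4.65, 37.8 and 31.7 CPM in Jab1-mutant samples and at 11.8, 68.2, 18.9 and 6.09 CPM in double-mutant samples. Jab1-mutant replicate 2, lowest for Acta2, was also lowest for Myh11, and the other samples of its group were above all WT samples. Myh11 had a log2 fold change of 1.22 ± 0.85 in Jab1-mutant samples (95% CI, -0.65 to 3.10; adjusted p = 0.447), and of 2.66 with limma-voom (adjusted p = 0.0573). Tagln encodes transgelin, or SM22α, an actin-binding protein of smooth muscle. It was at 0.498, 0.685, 1.24 and 0.0758 CPM in WT, at 1.22, 0.283, 2.11 and 7.30 CPM in Jab1-mutant samples and at 2.33, 2.29, 2.20 and 0.837 CPM in double-mutant samples. Its log2 fold change in Jab1-mutant samples was 2.13 ± 1.21 (95% CI, -0.53 to 4.78; adjusted p = 0.335). Exons of Tagln share bases with Pcsk7 on the other strand, which was at a mean of 41.9 CPM in WT, and with Gm48529, so Tagln counts are uncertain unless strand was used in counting.

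Against WT, none of the 9 markers passed the test in the double mutant (edgeR), where 0.192% of all genes did. An unadjusted p below 0.05 was found for 4 of the 9 (Vtn, Kcnj8, Rgs5 and Higd1b), and for 2194 of all 17716 genes. The log2 fold changes were 2.01 ± 0.58 for Vtn (adjusted p = 0.197), 2.48 ± 0.85 for Kcnj8 (adjusted p = 0.259), 1.94 ± 0.68 for Rgs5 (adjusted p = 0.276) and 1.74 ± 0.70 for Higd1b (adjusted p = 0.338). Abcc9 had 1.74 ± 0.91 (adjusted p = 0.476). The smooth muscle markers had 2.05 ± 1.43 (Acta2), 1.6 ± 1.04 (Tagln) and 1.18 ± 0.94 (Myh11), with adjusted p-values of 0.568 to 0.647. Pdgfrb had -0.12 ± 0.51 (adjusted p = 0.949). The median of the 9 markers was 1.74, beside 0.00 over all genes. No marker separated the double-mutant from the WT samples without overlap, whereas 4.52% of all genes were higher and 3.58% lower without overlap. DESeq2 called 3 markers (Rgs5, Kcnj8 and Vtn), where it called 4.94% of all genes, and limma-voom called 0 where it called 0.265%. Without double-mutant replicate 1, Kcnj8 passed the edgeR test.

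Between the double mutant and the Jab1 mutant, which differ in p21, no marker passed the test (edgeR), where 0% of all genes passed. No marker had an unadjusted p below 0.05, whereas 885 of all 17716 genes did. DESeq2 and limma-voom called 0 markers as well, where they called 0.499% and 0.00564% of all genes. The log2 fold change was -1.01 for Abcc9 (95% CI, -2.80 to 0.78), -0.77 for Higd1b (95% CI, -2.27 to 0.73) and -0.49 for Rgs5 (95% CI, -1.93 to 0.94). It was -0.27 for Vtn (95% CI, -1.45 to 0.92) and 0.04 for Kcnj8 (95% CI, -1.71 to 1.78). Pdgfrb had the narrowest interval, -0.88 to 0.75 around -0.07, and Acta2 and Tagln among the widest, -2.87 to 2.84 and -2.93 to 1.91. All 9 intervals held 0, and 8 of them reached below -1, so equality of the genotypes was not shown. No marker separated the groups, whereas 1.22% of all genes were higher and 1.99% lower without overlap. The comparisons of the 2 mutants with WT share the WT samples and are given side by side only.

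**Figure D2:**
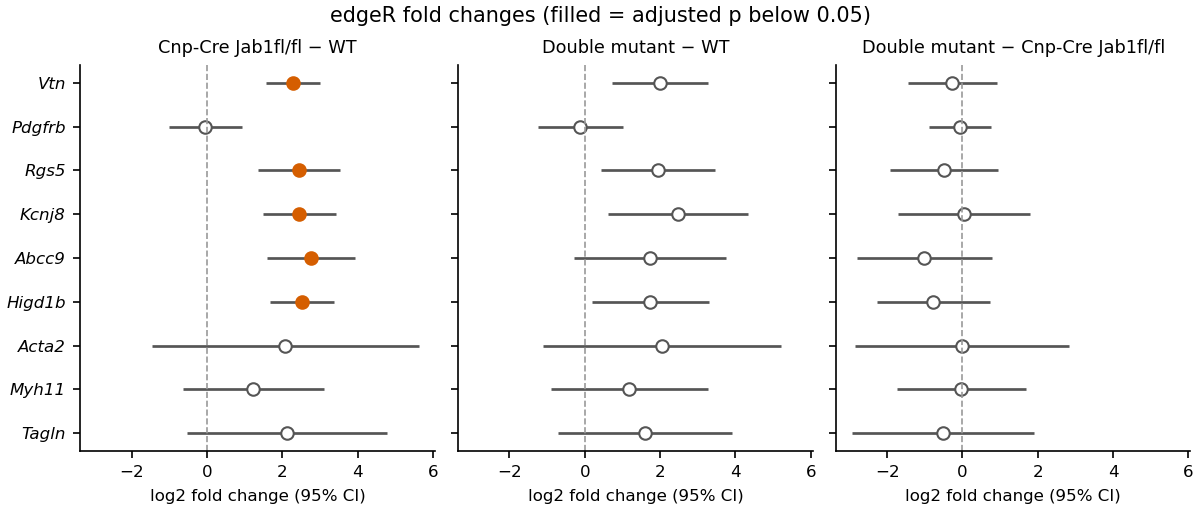
Log2 fold changes of the 9 markers (horizontal axes, edgeR) in the 3 comparisons (panels), with bars for the 95% confidence interval and filled points for an adjusted p below 0.05. The 5 filled points, from 2.28 to 2.75, are pericyte markers in the Jab1-mutant against WT comparison, and the Pdgfrb points lie near 0 in all panels.

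The make-up of the pericyte signal was compared within samples. The ratio of Vtn to Pdgfrb was 2.82, 1.20, 2.45 and 1.35 in WT and 7.62, 10.2, 6.33 and 8.44 in Jab1-mutant samples. The ranges did not overlap, and a ratio taken within a library is free of library scaling. The double-mutant ratios were 4.66, 2.51, 9.54 and 9.93, which spans both ranges. Vtn made up 49.5% to 57.6% of the summed CPM of the 6 pericyte markers in WT, 65.7% to 74.3% in Jab1-mutant and 63.0% to 74.2% in double-mutant samples. The sum includes Pdgfrb, which did not pass the test, so this share and the ratio to Pdgfrb are not separate results. The ratios and the share were chosen after the levels were known and were not tested.

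Endothelial cells line the capillaries that pericytes cover, and their markers moved with the pericyte markers. Of 13 endothelial markers 9 were higher in Jab1-mutant than in WT samples (edgeR), where 7.64% of all genes passed in either direction. The efflux pump gene Abcb1a led them (log2 fold change 3.24 ± 0.55, adjusted p = 0.0068). All 13 had an unadjusted p below 0.05, as had 3991 of all 17716 genes. DESeq2 called 13, where it called 15.3% of all genes, and limma-voom called 11, with its share over all genes not given here. The summed level of the 13 endothelial markers was 1106, 818, 466 and 965 CPM in WT, 7932, 1135, 3668 and 6001 CPM in Jab1-mutant and 886, 1103, 4893 and 8631 CPM in double-mutant samples. The summed level of the 6 pericyte markers was 273, 437, 170.4 and 297 CPM in WT, 961, 1009, 937 and 1416 CPM in Jab1-mutant and 258, 443, 1155 and 1681 CPM in double-mutant samples. Among double-mutant samples, replicates 3 and 5 were high in both sums and replicates 1 and 2 low in both. Jab1-mutant replicate 2 was high in the pericyte sum, while its endothelial sum was only just above the WT range. The ratio of the pericyte to the endothelial sum overlapped between the genotypes, at 0.247 to 0.534 in WT, 0.121 to 0.889 in Jab1-mutant and 0.195 to 0.402 in double-mutant samples. The part of the endothelial signal in the rise of the pericyte markers was not tested.

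**Figure D3:**
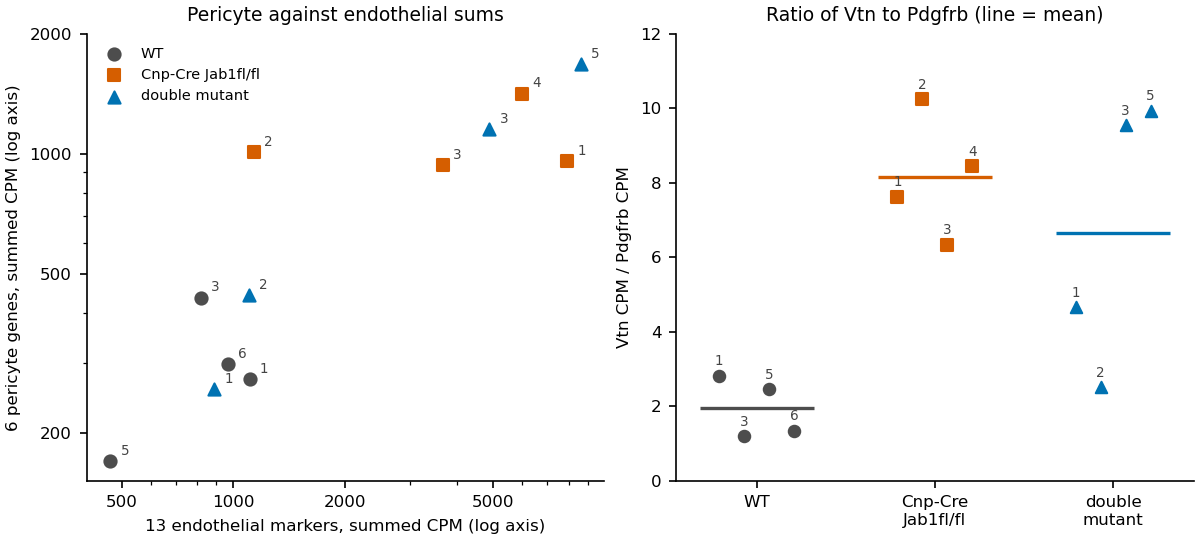
Left, summed CPM of the 6 pericyte markers against that of 13 endothelial markers in the 12 samples (both axes logarithmic), and right, the ratio of Vtn to Pdgfrb CPM per sample with the group mean as a line. Jab1-mutant ratios, 6.33 to 10.2, all lie above the WT ratios, 1.20 to 2.82.

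Markers of other cells moved as well, and their edgeR counts for Jab1-mutant against WT stand beside 7.64% of all genes called. All 12 microglia markers were higher in Jab1-mutant samples, led by Trem2 (log2 fold change 5.62 ± 0.55, adjusted p = 5.3e-04), although the sort gated out CD45+ cells, and their summed level was 93.1 to 259 CPM in WT, 955 to 2401 CPM in Jab1-mutant and 348 to 16516 CPM in double-mutant samples. The highest value was in double-mutant replicate 3. Of 9 fibroblast markers tested, edgeR called 1 higher, Mgp (log2 fold change 4.35 ± 0.55, adjusted p = 0.0020), which smooth muscle also expresses. Dpt had 0 counts in every sample. The log2 fold changes of the 9 had a median of 2.47, with 8 above 0 and 1 below. DESeq2 called 4 of the 9, where it called 15.3% of all genes, and limma-voom called 5, with its share over all genes not given here. The summed fibroblast level was 52.7 to 172 CPM in WT, 266 to 897 CPM in Jab1-mutant and 288 to 722 CPM in double-mutant samples. In the double mutant against WT, Mgp was the only gene of any list that edgeR called. An unadjusted p below 0.05 was found for 12 of 12 microglia and 12 of 13 endothelial markers, and for 2194 of all 17716 genes. DESeq2 called 10 of the 13 endothelial markers and all 8 microglia markers to which it gave an adjusted p, and limma-voom called 0 of either list. Of 7 choroid plexus markers 2 were higher in Jab1-mutant samples (edgeR), led by Ttr (2.79 ± 0.73, adjusted p = 0.0408). DESeq2 called 4 of the 6 to which it gave an adjusted p, and limma-voom called 4 of the 7. The summed choroid plexus level was 299.8 to 4118 CPM in WT, 6513 to 24655 CPM in Jab1-mutant and 5431 to 24077 CPM in double-mutant samples. Of 10 oligodendrocyte markers 7 were lower in Jab1-mutant samples (edgeR), led by Opalin (-4.29 ± 0.78, adjusted p = 0.0091), and DESeq2 called 8 and limma-voom 9. None of the 10 astrocyte, 8 neuron or 5 erythroid markers tested passed in Jab1-mutant samples (edgeR). An unadjusted p below 0.05 was found for 3, 3 and 4 of them, and for 3991 of all 17716 genes. DESeq2 called 0, 1 and 0 of these markers and limma-voom 1, 0 and 0. Also, 1 of the 7 markers of oligodendrocyte precursors (OPCs) passed, Cspg4. The part of these cells in the marker changes was not tested.

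Outside the 9 markers, 11 of 13 other pericyte genes were tested, of which 2 were higher and 1 lower in Jab1-mutant samples, with a median log2 fold change of 1.62. Art3, an ADP-ribosyltransferase gene, rose from 7.82 ± 2.21 CPM in WT to 32.8 ± 16.3 CPM (log2 fold change 2.07 ± 0.44, adjusted p = 0.0170). Cspg4, the NG2 proteoglycan gene of pericytes and of OPCs, rose from 10.7 ± 6.47 to 35.4 ± 9.03 CPM (1.72 ± 0.47, adjusted p = 0.0490). Mcam, which encodes the adhesion molecule CD146 of pericytes and endothelium, went the other way, from 163, 163, 298 and 143 CPM in WT to 22.8, 62.2, 35.8 and 39.0 CPM (-2.26 ± 0.38, adjusted p = 0.0068). The double-mutant samples, at 30.9 to 101 CPM, were likewise below all WT samples for Mcam without passing the test (-1.72 ± 0.42, adjusted p = 0.137). Mcam alone of the list was called without WT replicate 5, WT replicate 6 or Jab1-mutant replicate 4, and 5 genes were called without WT replicate 3. Cspg4 also lost its call without WT replicate 1, Jab1-mutant replicate 1 or Jab1-mutant replicate 3, where Art3 and Mcam kept theirs. The receptor gene Notch3, a further mural marker, had a log2 fold change of -0.10 (adjusted p = 0.947).

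Of 13 other contractile genes 11 were tested and 2 were higher in Jab1-mutant samples, with a median of 1.47. Synpo2, an actin-bundling protein gene, rose from 4.81 ± 1.14 to 28.0 ± 12.1 CPM (2.54 ± 0.48, adjusted p = 0.0105). Cald1, which encodes the actin-regulating protein caldesmon, rose from 76.9 ± 20 to 227 ± 113 CPM (1.56 ± 0.40, adjusted p = 0.0368). Myl9, a myosin light chain gene, had 1.86 ± 0.54 (adjusted p = 0.0614). Synpo2 was called whichever sample was left out. Cald1 kept its call without Jab1-mutant replicate 2, where 4 genes of the list were called, and lost it when any other sample was left out.

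Among 22 signalling genes between endothelium and mural cells 21 were tested and 5 were higher in Jab1-mutant samples, with a median of 1.47. Pdgfb, the ligand for Pdgfrb, was at 4.27, 5.85, 2.93 and 6.12 CPM in WT and at 69.2, 18.4, 48.6 and 38.4 CPM in Jab1-mutant samples. It rose by 3.19 ± 0.47 on the log2 scale (adjusted p = 0.0038), whereas its receptor gene did not pass the test, and in the double mutant it was at 18.3, 5.35, 25.6 and 50.4 CPM (2.37 ± 0.63, adjusted p = 0.169). The growth factor gene Tgfb1 rose by 3.67 ± 0.71 (adjusted p = 0.0117) and its receptor gene Tgfbr2 by 2.09 ± 0.48 (adjusted p = 0.0246). The receptor gene Acvrl1 rose by 2.38 ± 0.55 (adjusted p = 0.0256) and the Notch ligand gene Jag2 by 2.52 ± 0.57 (adjusted p = 0.0241). Pdgfb and Tgfb1 were called whichever sample was left out, and they were the 2 genes called without WT replicate 1, WT replicate 6, Jab1-mutant replicate 1 or Jab1-mutant replicate 4. Without WT replicate 5 there were 3, with Tgfbr2.

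Relatives of the markers from the same gene families were looked at beside them. Of 15 relatives 12 were tested, 3 were higher and 1 lower in Jab1-mutant samples, with a median of 0.64. Rgs2 and Rgs4, which like Rgs5 damp G protein signals, rose by 2.70 ± 0.33 (adjusted p = 0.0017) and 2.07 ± 0.38 (adjusted p = 0.0094), and Tagln2 rose by 2.12 ± 0.46 (adjusted p = 0.0188). The nonmuscle myosin gene Myh14 fell by 1.71 on the log2 scale (SE 0.44, adjusted p = 0.0378). Rgs2 and Rgs4 were called whichever sample was left out, and were the 2 relatives called without WT replicate 3 or WT replicate 5. Tagln2 also lost its call without WT replicate 6, and Myh14 without Jab1-mutant replicate 2, 3 or 4. The cytoplasmic actin gene Actb had -0.06. Kcnj11 and Abcc8, the pancreatic and neuronal counterparts of Kcnj8 and Abcc9, failed the filter, with highest levels of 0.870 and 0.565 CPM in any sample. In the double mutant 0 genes of these 4 lists were called by edgeR against WT or against the Jab1 mutant. Against WT, 4 other pericyte genes, 5 other contractile genes, 4 signalling genes and 4 relatives had an unadjusted p below 0.05, beside 2194 of all 17716 genes. DESeq2 called 3, 2, 3 and 2 genes of these lists and limma-voom 0. Against the Jab1 mutant all of these list counts were 0, where 885 of all genes had an unadjusted p below 0.05. The medians were 1.08 for other pericyte genes, 1.53 for other contractile genes, 1.20 for signalling genes and 0.59 for relatives against WT, and 0.08, -0.32, -0.05 and 0.15 against the Jab1 mutant.

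Across the 12 samples the pericyte markers other than Pdgfrb moved together. Pearson's r of log2(CPM + 1) was 0.85 to 0.93 in the 10 pairs among them and 0.11 to 0.45 in the 5 pairs with Pdgfrb. After the genotype means were subtracted, r was 0.71 to 0.97 (median 0.84) in the 10 pairs and 0.05 to 0.63 (median 0.46) in the 5 pairs with Pdgfrb, of which Vtn had the highest. The 3 smooth muscle pairs had r of 0.72 to 0.88, and 0.63 to 0.88 after the genotype means were subtracted. Between a pericyte and a smooth muscle marker r was -0.02 to 0.51 in 18 pairs, with a median of 0.21. These correlations describe 12 samples that share their genotype, sort and scaling.

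**Figure D4:**
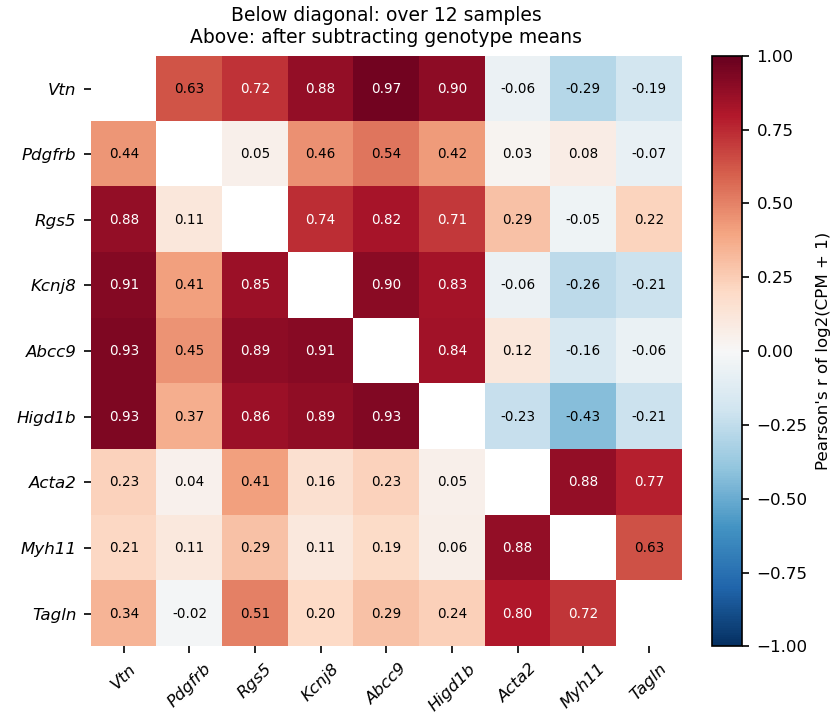
Pearson's r of log2(CPM + 1) for each pair of the 9 markers over 12 samples (below the diagonal) and after subtracting the genotype means (above). A pericyte block without Pdgfrb, with r of 0.85 to 0.93, and a smooth muscle block, with r of 0.72 to 0.88, stand apart from each other.

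By the highest r over the 12 samples, the genes most like each marker were mostly outside the mural lists. Vtn was most like Mxra7 (r = 0.98), Rflnb (0.95) and Ifitm2 (0.95), and Abcc9 most like Mcub (0.96), Jak3 (0.96) and Cspg4 (0.94). Kcnj8 was most like Tuba1c (0.94), Scarf2 (0.93) and Nsg2 (0.92), and Higd1b most like Ifi206 (0.94), Adap2os (0.93) and Was (0.93). For Rgs5 the closest were Crybb1 (0.93), Tpm3-rs7 (0.93) and Cish (0.92), and for Pdgfrb Fads3 (0.91), Ece1 (0.90) and Sox13 (0.88). For Acta2 they were Tnxb (0.88), Mylk (0.86) and Pdgfra (0.83), for Tagln Gm29257 (0.91), Asb11 (0.88) and Flnc (0.85), and for Myh11 Gucy1a1 (0.84), Gm29055 (0.82) and Usp8 (0.81). Of these like genes only Cspg4, Mylk and Pdgfra are on any gene list used here, and they do not stand for the other genes named. Which cells gave the transcripts of the like genes was not tested.

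Levels were compared between genes per kilobase of exon. In WT, Vtn stood at a mean of 89.1 CPM per kb, apart from Pdgfrb at 17.8, Acta2 at 16.1, Higd1b at 8.13, Rgs5 at 5.46, Kcnj8 at 2.68, Myh11 at 1.73, Tagln at 0.391 and Abcc9 at 0.380 CPM per kb. Only Vtn did not overlap its neighbour in this order. In Jab1-mutant samples the order was Vtn (432 CPM per kb), Acta2 (67.8), Higd1b (46.4), Rgs5 (29.7), Pdgfrb (17.2), Kcnj8 (14.6), Myh11 (4.05), Abcc9 (2.56) and Tagln (1.71), so that Pdgfrb stood below Acta2, Higd1b and Rgs5. Vtn was again apart from its neighbour, as was Kcnj8 from Myh11. For the double mutant the order of means was the same, from Vtn at 359 to Tagln at 1.20 CPM per kb, and all neighbours overlapped.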

How the data were processed

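RNA-Seq was measured in 12 samples of sorted oligodendrocytes, 4 per genotype, each from 2 brains. Raw gene counts were deposited. To make them, the authors used Trimmomatic 0.32 for trimming, STAR 2.5.3a for alignment (GRCm38) and featureCounts with GENCODE basic genes for counting. The libraries carry no molecular identifiers, and strand use and the treatment of reads matching several genes are not given in the sources used here. Samples were grouped by their labels. A gene was kept if 4 or more samples reached 1 CPM. Each pair of genotypes was fitted on its 8 samples with edgeR 4.0.16 (R 4.3.3) using TMM factors, the quasi-likelihood test and Benjamini-Hochberg adjustment (threshold 0.05). The fit was tested on simulated data. CPM used TMM factors over all 12 samples. Exon lengths came from GENCODE M21 basic and promoter windows from RefSeq. DESeq2 1.42.0 and limma 3.58.1 (voom with quality weights), other scalings, filters, a single fit of all samples, a replicate block and leaving out each sample were alternatives. The p-values measure the spread between pooled samples. Replicates differed by far more than counting noise, so none was counted as a repeat.

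The 9 markers and all gene lists were chosen with earlier results of these data known. Named genes were the 9 markers, the called genes of each mural, signalling and relative list (at least 3 each, by p), the 3 genes most like each marker, and the leading or absent gene of other cell type lists. Notch3, Actb, Kcnj11, Abcc8 and the overlapping genes were named outside this rule, after their values were seen, as was the CArG-like motif.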

Additional observations from a re-analysis of the deposited data

Results flagged for a closer look

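Of 27 marker and genotype groups tested with Dixon's criterion for a sample far from the others, 3 were flagged, where chance flags about 1 in 20 groups. Rgs5 in Jab1-mutant replicate 4 stood at 254 CPM, above the 88.7 to 107 CPM of the other Jab1-mutant samples. Higd1b in Jab1-mutant replicate 1 stood at 20.5 CPM, below the 45.2 to 46.3 CPM of the others. Tagln in double-mutant replicate 5 stood at 0.837 CPM, below the 2.20 to 2.33 CPM of the others.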

How the results depend on the processing

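In the Jab1-mutant against WT comparison, the 5 called markers fell to 3 (Rgs5, Vtn and Higd1b) with all 12 samples in one fit, where 5.31% of all genes were called. With the replicate number as a block in that fit they fell to 0. The share of all genes called with the block is not given, so this 0 cannot be set beside it. WT replicate 6 and Jab1-mutant replicate 4 are the only samples with their number, so the block takes them out of the comparison. Same-numbered samples had deviations correlated by -0.19 to 0.08 in 8 pairs, none above 0.1. Pairs with other numbers had -0.24 to 0.33 in 40 pairs. The numbers thus gave no sign of a pairing, but these correlations cannot exclude one, as other differences between samples may hide it. In the double mutant against WT, DESeq2 called 3 markers in place of 0, and leaving out a sample gave 0 to 1. Whole-table calls by DESeq2 were 2689 against 1354 for the Jab1 mutant and 862 against 34 for the double mutant. The causes were not tested.

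Of 429 alternative fold changes 376 kept their direction and side of the threshold, 8 lost a call, 4 gained one and 41 turned, all of the last in values not called. Pdgfrb in the Jab1 mutant against WT turned to 0.0063 with upper-quartile factors, 0.0077 with library totals, 0.072 with a mean of at least 10 CPM, 0.15 with the block and 0.33 with voom, and in the double mutant against WT to 0.14 with the block and 0.12 with voom. Between the mutants, Kcnj8 turned to -0.056 with library totals, -0.26 with the block and -0.70 with voom, Acta2 to 0.057 with no filter, 0.54 with the block and 0.52 with voom, Tagln to 0.91 with the block and 0.16 with voom, and Myh11 to 0.054 with no filter. Leaving out single samples gave Pdgfrb -0.32 to 0.42 and -0.37 to 0.35 against WT, and between the mutants Pdgfrb -0.27 to 0.19, Rgs5 -0.89 to 0.028, Kcnj8 -0.41 to 0.44, Vtn -0.84 to 0.051, Acta2 -0.50 to 0.79, Tagln -0.89 to 0.71 and Myh11 -1.13 to 0.30. Tagln had no value at a mean of at least 10 CPM.

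Over all alternatives, the genes called in the Jab1 mutant against WT numbered 0 to 6 for other pericyte genes, 0 to 5 for other contractile genes, 1 to 8 for signalling genes and 0 to 5 for relatives.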
